A study of Arabidopsis thaliana with 24 samples.

Results

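The genes described here are 5 Arabidopsis genes of salicylic acid synthesis and of the defence response linked to it, namely ICS1 (AT1G74710, probe set 262177_at), PBS3 (AT5G13320, 250286_at), WRKY46 (AT2G46400, 263783_at), WRKY53 (AT4G23810, 254231_at) and NUDT6 (AT2G04450, 263852_at). They were taken by name, each with 1 probe set, from the 22746 probe sets tested. All 5 belong to the genes that the study selected for their changes on its leaf arrays, and none to those it selected on its root arrays. The leaf values of these genes, also where they are set against roots or between weeks, are therefore given as a description without a test, while the root values were not used for that selection and were tested.

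The data are deposited signals, which are intensities on a linear scale, of 24 ATH1 arrays. Plants of ecotype Columbia, either wild type or the quadruple mutant nas4x-1, in which T-DNA insertions hit every nicotianamine synthase gene, were raised in hydroponic medium with 10 µM FeNa-EDTA. They were then kept for 7 days with 10 µM (+ Fe) or 0 µM Fe (- Fe), and roots and rosette leaves were harvested. Each of the 8 groups of genotype, organ and Fe supply had 3 arrays, 1 from each of 3 consecutive harvest weeks by the methods of the study. The replicate number was taken as that week. The mutant is 1 line, and its insertions are present in every cell type. NAS1, one of the disrupted genes, had signals of 5.33 to 23.2 in leaves of nas4x-1 against 85.8 to 431 in wild type, and of 8.80 to 31.2 against 94.1 to 943 in roots, so that no array of nas4x-1 reached wild type. NAS2 was higher in nas4x-1 leaves (15.6 to 109.1) than in wild type leaves (1.60 to 13.4), and where its probe set lies relative to the insertion was not analysed here. RCA, which encodes the Rubisco activase of chloroplasts, had 3723 to 4770 in leaves and 29.3 to 102.9 in roots. It was the single one of 8 leaf markers with a probe set matched to it, and none of the 9 root markers had one.

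Salicylic acid is a plant hormone best known for its part in defence against pathogens that feed on living tissue. Isochorismate synthase, encoded by ICS1, converts chorismate to isochorismate in the plastid, and the enzyme encoded by PBS3 then couples isochorismate to glutamate, from which salicylic acid is released. WRKY46 and WRKY53 encode transcription factors that bind W-box elements and respond to salicylic acid and to pathogens, and WRKY53 is also known as a regulator of leaf senescence. NUDT6 encodes a nudix hydrolase that acts on NADH and has been placed in salicylic acid signalling.

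In leaves of wild type, Fe deficiency went with higher signals of all 5 genes. ICS1 had 73.3, 64.7 and 67.8 at + Fe in weeks 1, 2 and 3, and 222, 369.85 and 293 at - Fe. PBS3 had 15.1, 20.9 and 28.0 at + Fe and 63.8, 130.4 and 79.2 at - Fe. For both genes of the synthesis route the lowest array at - Fe thus lay above the highest at + Fe. The log2 fold change on the scale of log2(signal + 16) was 1.85 (SE 0.274) for ICS1 and 1.49 (SE 0.318) for PBS3, with n = 3 arrays per group. In whole leaves or roots, a change in the number of cells of a type and a change in the RNA per cell cannot be told apart. The methods of the study place the replicates in separate weeks. The sample titles name biological replicates without a week and do not say more on how independent the plants were.

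The transcription factors and the nudix hydrolase gene had the same order. WRKY46 had 52.9, 61.9 and 36.8 at + Fe and 136.8, 279.8 and 209 at - Fe (log2 fold change 1.72, SE 0.386). WRKY53 had 26.8, 51.9 and 44.0 at + Fe and 215, 275 and 106 at - Fe (log2 fold change 1.85, SE 0.443). NUDT6 had 3.83, 39.3 and 26.8 at + Fe and 104.6, 270.3 and 102.8 at - Fe, and with 2.15 (SE 0.483) it had the highest log2 fold change of the 5. All 5 genes were higher with no overlap between the groups, as were 7.09% of all probe sets, and nothing is read from this count because the study selected the genes on these leaf arrays. Their log2 fold changes ranked between 31 and 109 from the top among the 22746 probe sets, which is a description for the same reason.

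**Figure D1:**
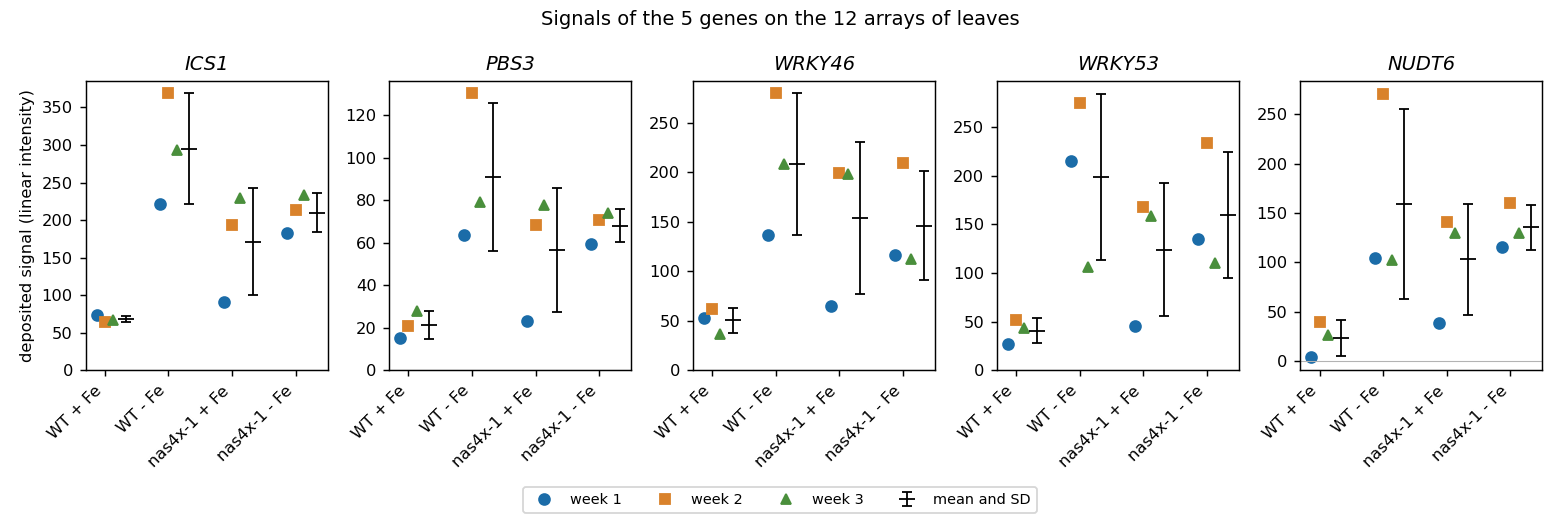
Deposited signal (linear intensity, y axis from 0) of the 5 genes on each of the 12 leaf arrays, by group on the x axis, with harvest weeks as symbols and the mean and SD of 3 arrays beside them. The arrays of wild type at + Fe are low for every gene, with means from 21.3 for PBS3 to 68.6 for ICS1, and the week 1 array of nas4x-1 at + Fe lies below the other arrays of its group.

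In leaves of nas4x-1 at + Fe, the 5 genes had mean signals above those of wild type at + Fe. Means were 171 ± 71.3 against 68.6 ± 4.37 for ICS1, 56.6 ± 29.1 against 21.3 ± 6.47 for PBS3, and 154 ± 76.8 against 50.55 ± 12.7 for WRKY46 (SD, n = 3 arrays each). They were 124 ± 68.0 against 40.9 ± 12.8 for WRKY53 and 103 ± 56.1 against 23.3 ± 18.0 for NUDT6. The log2 fold changes were 1.06 for ICS1, 0.88 for PBS3, 1.24 for WRKY46, 1.17 for WRKY53 and 1.58 for NUDT6, with a median of 1.17 against 0.00 over all probe sets. Nothing is read from this median, because the study selected the genes on its leaf arrays.

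At + Fe, the mutant exceeded wild type in all 3 weeks for each gene, which also held for 15.5% of all probe sets, but the size of the difference varied with the week. ICS1 had 91.7, 194 and 229 in nas4x-1 at + Fe, PBS3 had 23.4, 68.6 and 77.8, and WRKY46 had 65.5, 199 and 198. WRKY53 had 46.0, 168 and 158, and NUDT6 had 38.7, 141 and 129.8. The array of week 1 was the lowest of its group for all 5 genes, with 28.1% to 43.4% of the mean of the other 2 weeks. With it, the groups overlapped for PBS3, WRKY53 and NUDT6 and did not for ICS1 and WRKY46, that is 2 of 5 genes were higher with no overlap against 4.98% of all probe sets. Without it 5 of 5 did not overlap, against 12.2% of all probe sets.

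In nas4x-1 leaves, the Fe supplies differed by at most 0.48 on the log2 scale for these genes. At - Fe the mutant had 183, 214 and 234 for ICS1 in weeks 1 to 3 and 59.5, 70.7 and 74.2 for PBS3. It had 117, 209.8 and 112 for WRKY46, 135, 233 and 110.6 for WRKY53, and 116, 160.4 and 129.8 for NUDT6. The groups of - Fe and + Fe overlapped for every gene, while 5.61% of all probe sets were higher at - Fe with no overlap. The log2 fold changes were 0.35 (SE 0.274) for ICS1, 0.31 (SE 0.318) for PBS3, 0.01 (SE 0.386) for WRKY46, 0.42 (SE 0.443) for WRKY53 and 0.48 (SE 0.483) for NUDT6. In week 1, in which the + Fe array was low, the log2 differences were between 0.70 and 1.29, and in week 3 they were between -0.74 and 0.03. Without that week 1 array all 5 log2 fold changes were below 0, with -0.0104 for ICS1, -0.0874 for PBS3, -0.45 for WRKY46, -0.0910 for WRKY53 and -0.0110 for NUDT6. WRKY46 was also below 0 without the week 2 array at - Fe (-0.25). Over the omissions of 1 array the highest values were 0.58 for ICS1, 0.54 for PBS3, 0.25 for WRKY46, 0.697 for WRKY53 and 0.75 for NUDT6.

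At - Fe, nas4x-1 leaves had somewhat lower mean signals than wild type leaves, with log2 fold changes from -0.47 for WRKY46 to -0.09 for NUDT6. The groups overlapped for every gene, while 6.47% of all probe sets were lower in nas4x-1 with no overlap. The difference between the genotypes in the response to Fe supply was -1.50 (SE 0.388) for ICS1, -1.18 (SE 0.449) for PBS3, -1.71 (SE 0.545) for WRKY46, -1.43 (SE 0.627) for WRKY53 and -1.67 (SE 0.683) for NUDT6 on the log2 scale. These comparisons share groups of arrays, so their values are not independent of each other.

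**Figure D2:**
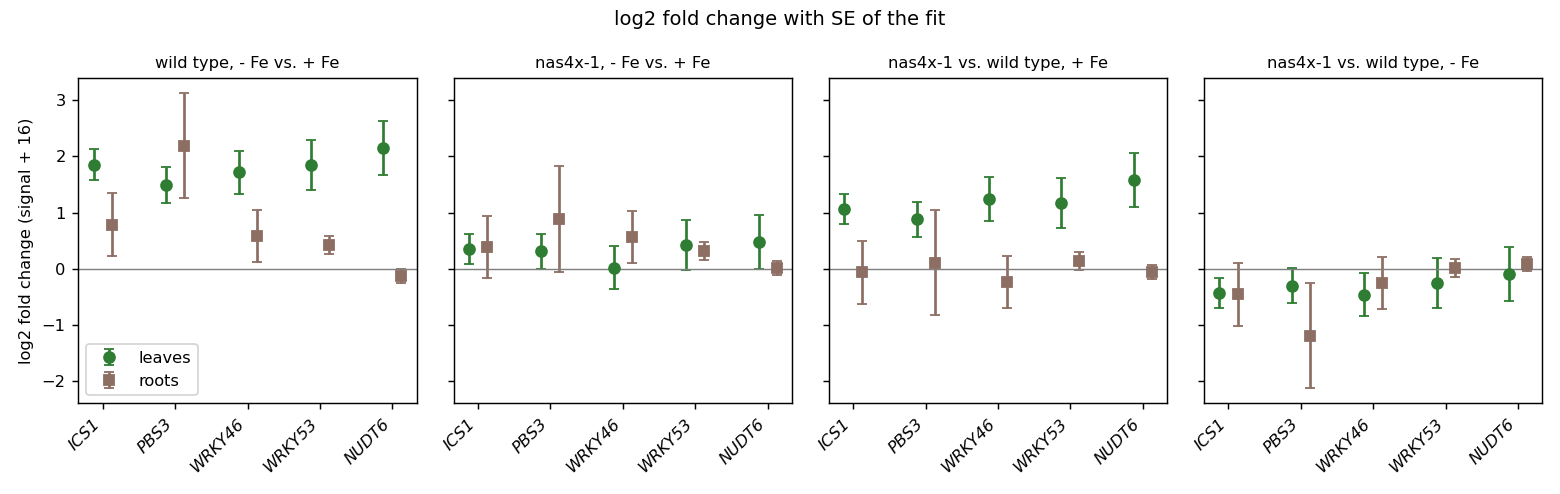
log2 fold change on the scale of log2(signal + 16) with the standard error of the fit (y axis) for the 5 genes (x axis) in the 4 comparisons, for leaves (circles) and roots (squares). Leaf values lie between 1.49 and 2.15 for wild type at - Fe vs. + Fe and between 0.01 and 0.48 for nas4x-1, and the bars of PBS3 in roots are the longest.

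Over the 12 leaf arrays the 5 genes varied together. Pearson correlations of log2(signal + 16) between pairs of them lay between 0.88 (ICS1 with WRKY53) and 0.97 (ICS1 with PBS3). They are given as a description, since the study selected the genes on these arrays, and the arrays share groups and weeks. On the root arrays the same correlations lay between -0.22 (WRKY53 with NUDT6) and 0.92 (ICS1 with PBS3). The genes whose leaf profile was nearest to the mean profile of the 5, among 5957 genes with a mean signal of at least 50 in a leaf group, were led by BIP3 (r = 0.96), a chaperone of the endoplasmic reticulum. ERDJ3B (r = 0.95), a co-chaperone of the same compartment, and PDIL2-2 (r = 0.95), a protein disulfide isomerase, were close to it, as was BCS1 (r = 0.95), also named OM66, an ATPase of the outer mitochondrial membrane. AT5G39670, annotated as a calcium-binding EF hand protein, SAL2, AT1G57630, AT4G00700, the chitinase gene CHI and the receptor-like kinase gene CRK37 followed with r from 0.95 to 0.90. The study had selected 7 of these 10 genes on the leaf arrays, and ERDJ3B, AT4G00700 and CHI were not among its selection.

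In leaves, BIP3 had 3.75, 19.6 and 15.8 in supplied wild type, 83.1, 95.7 and 59.5 in deficient wild type, and 16.5, 81.3 and 73.9 in nas4x-1 at + Fe. ERDJ3B had 196, 331 and 229 in wild type at + Fe, 461, 621 and 428 at - Fe, and 218, 514 and 533 in nas4x-1 at + Fe. CHI had 40.7, 54.8 and 42.1 in wild type at + Fe, 409, 647 and 207 at - Fe, and 51.7, 952 and 828 in nas4x-1 at + Fe. The 3 genes shared the low array of week 1 in nas4x-1 at + Fe. They were chosen for a leaf profile like that of the salicylic acid genes on these same arrays, so nothing is read from this likeness. Taken separately, WRKY53 and NUDT6 were nearest to BIP3 (r = 0.97 and 0.96), ICS1 to PDIL2-2 (r = 0.94), PBS3 to SAL2 (r = 0.96) and WRKY46 to AT5G39670 (r = 0.94).

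**Figure D3:**
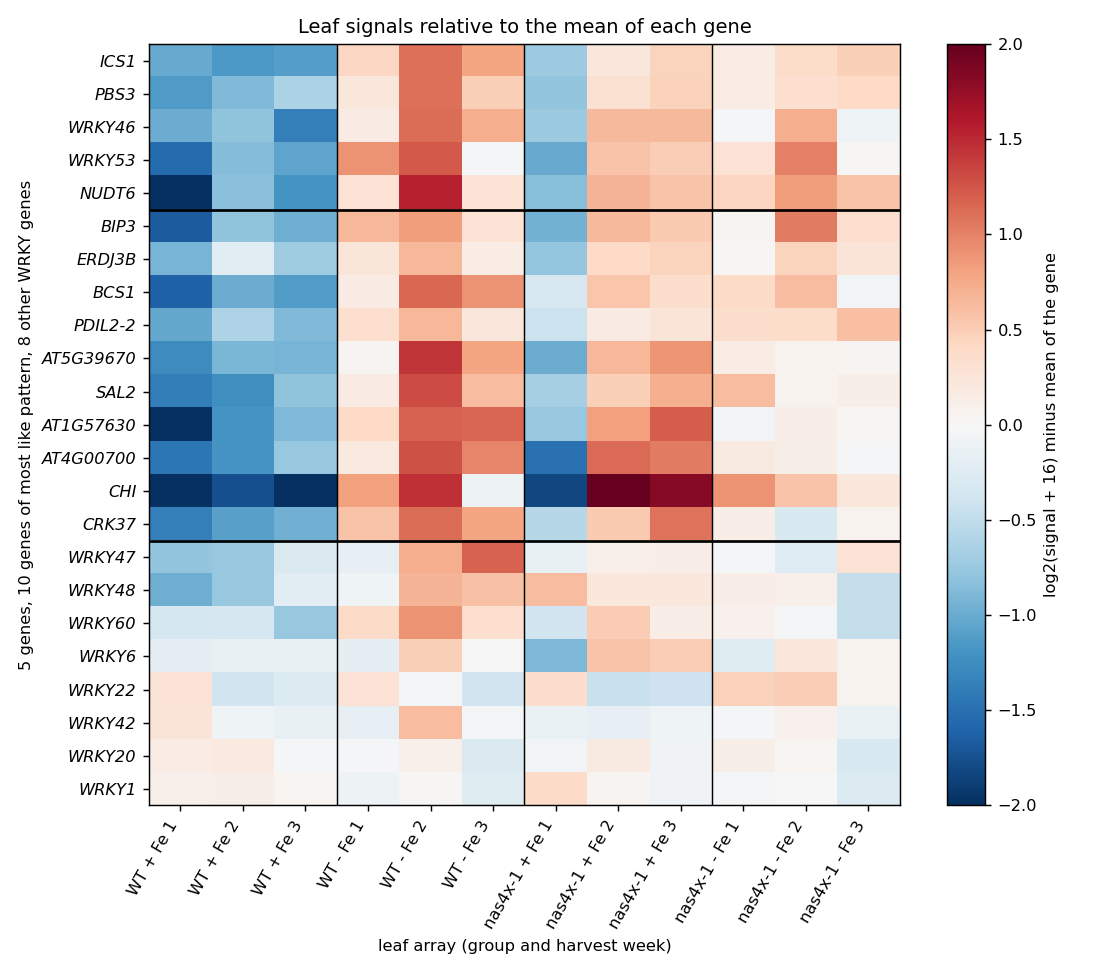
log2(signal + 16) minus the mean of the gene (colour, drawn between -2 and 2, with values beyond at the end colours) for the 12 leaf arrays (x axis, group and harvest week) and 23 genes (y axis): the 5 genes, the 10 genes of most like leaf pattern and the 8 other WRKY genes with a matched probe set. WRKY47, WRKY48 and WRKY60 share the low columns of wild type at + Fe with the first 15 genes, and WRKY20 and WRKY1 vary little.

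Of the other genes around salicylic acid few had a probe set matched to them alone. In all, 8 of 37 listed genes were measured, ICS1 and PBS3 among them, and EDS5, EDS1, PR1, PR2 and PR5 were not analysed here. None of the 6 others passed the test of limma in either direction in any comparison of leaves or roots (adjusted p, Benjamini-Hochberg over all 22746 probe sets). This holds for the fit without a replicate block. Of all probe sets, 0.176% passed in leaves for wild type at - Fe vs. + Fe, 0.0659% for nas4x-1 at - Fe vs. + Fe, 0.0264% for nas4x-1 vs. wild type at + Fe, 0.0659% at - Fe and 0.0615% in the interaction of genotype and Fe supply. For the 6 genes, the median log2 fold change was 0.62 for wild type leaves at - Fe vs. + Fe, against -0.02 over all probe sets, and 0.07 for nas4x-1 vs. wild type leaves at + Fe, against 0.00. The study had selected 1 of the 6, PAL2, on these leaf arrays, so its leaf values are no test. UGT74F1, UGT76B1 and BSMT1 were near the floor in leaves, with median signals of 1.075, 7.15 and 1.31. Nothing is therefore read from the leaf medians of the 6.

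PAL2 encodes a phenylalanine ammonia-lyase, the entry enzyme of phenylpropanoid synthesis and of the other route to salicylic acid. In leaves it was selected by the study too, and its order of groups differed from that of ICS1. It had 239.7, 175 and 244 in wild type at + Fe and 203, 144 and 249 in nas4x-1 at + Fe, so that the genotypes overlapped (log2 fold change -0.15, SE 0.211). At - Fe it had 387, 312 and 469 in wild type and 558, 447 and 516 in nas4x-1, and it was thus higher at - Fe in both genotypes with no overlap. This also held for 7.09% of all probe sets in wild type and 5.61% in nas4x-1, taken separately.

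SARD4 (AT5G52810), which acts in the synthesis of the immune signal pipecolic acid, was not selected by the study. In leaves it had 23.2, 136.8 and 104.8 in supplied wild type, 137, 226 and 214 in deficient wild type, and 98.2, 153 and 212 in supplied nas4x-1. Its log2 fold change for wild type at - Fe vs. + Fe was 1.18 (SE 0.484, limma adjusted p = 0.498), and it passed with the harvest week as a replicate block (adjusted p = 0.0477). SAG101, a partner of the immune regulator EDS1, had a log2 fold change of 0.52 (SE 0.37, limma adjusted p = 0.769) in the same comparison. Of the genes that modify salicylic acid, the glucosyltransferase gene UGT76B1 had leaf signals of at most 31.4 and UGT74F1 of at most 5.61. The methyltransferase gene BSMT1 had a leaf median of 1.31. For wild type leaves at - Fe vs. + Fe, UGT74F1 had a log2 fold change of 0.03 (SE 0.0753, limma adjusted p = 0.967). BSMT1 had one of -0.60 (SE 0.38, limma adjusted p = 0.732). With signals so near the floor, these values do not tell whether either gene changed. In roots BSMT1 was at 0.78 for nas4x-1 vs. wild type at + Fe (SE 0.182, limma adjusted p = 0.648), with signals of at most 22.3.

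PDF1.2, a defensin gene used as a marker of the jasmonate and ethylene response, had 16.8, 28.4 and 48.8 in wild type leaves at - Fe, and 3929, 162 and 2906 in nas4x-1 leaves at - Fe. The groups did not overlap, and 7.76% of all probe sets were higher in nas4x-1 with no overlap. The mutant arrays differed by over an order of magnitude, and the log2 fold change of 4.80 (SE 1.06) did not pass the test (limma adjusted p = 0.159). Of the genes of rapid stress responses, the zinc finger gene ZAT10 was at 0.14 (SE 0.622, limma adjusted p = 0.981) and the calmodulin-like gene CML38 at -0.85 (SE 0.528, limma adjusted p = 0.725) for wild type leaves at - Fe vs. + Fe. Of the senescence genes, NYC1, which acts in chlorophyll breakdown and was selected by the study on leaves, was at -1.34 (SE 0.411) in the same comparison and at -2.57 (SE 0.411) in nas4x-1. The sugar transporter gene SWEET15 had arrays from 2.02 to 786 within wild type leaves at - Fe alone, so that its log2 fold change of 0.35 (SE 1.41, limma adjusted p = 0.978) is poorly determined.

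Of the 72 WRKY genes that the reference names, 10 had a matched probe set. WRKY47, WRKY48 and WRKY60, which the study had also selected on leaves, had log2 fold changes of 1.19 (SE 0.296), 1.05 (SE 0.264) and 1.03 (SE 0.254) for wild type leaves at - Fe vs. + Fe. WRKY47 had 19.5, 19.9 and 33.7 in wild type at + Fe and 39.1, 49.7 and 50.9 in the mutant. WRKY48 had 4.38, 7.65 and 18.1 against 45.5, 30.2 and 30.4, so that neither gene overlapped between the genotypes at + Fe, while WRKY60 did, with 27.9, 28.6 and 17.1 against 27.0, 63.5 and 45.3. Of all probe sets, 4.98% were higher in nas4x-1 at + Fe with no overlap. Nothing is read from these WRKY genes, because the study selected them on these arrays. The 5 WRKY genes outside the selection, WRKY1, WRKY6, WRKY20, WRKY22 and WRKY42, had a median of 0.09 in the first of these comparisons, and none passed the test of limma in leaves or roots.

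Of the 27 nudix hydrolase genes named in the reference, 2 were measured, NUDT6 and NUDX13. NUDX13, which the study had also selected on leaves, was high in the leaf group with the lowest mean of NUDT6. It had 448, 349 and 377 in wild type at + Fe and 14.50 to 42.4 on the other 9 leaf arrays. NUDT6 did not split in this way, with 38.7 in nas4x-1 at + Fe in week 1 against up to 39.3 in wild type at + Fe. Nothing is read from this contrast, because the study selected both genes on these arrays.

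In roots, none of the 5 genes passed the test in any of the 4 comparisons or in the interaction of genotype and Fe supply (limma, adjusted p of at least 0.9995 for each). Of all 22746 probe sets, 0.0% passed for wild type at - Fe vs. + Fe, 0.0132% for nas4x-1 at - Fe vs. + Fe, 0.0703% for nas4x-1 vs. wild type at + Fe and 0.0747% at - Fe. In the interaction 0.0% of them passed. With the unadjusted threshold of 0.05, PBS3 and WRKY53 passed for wild type at - Fe vs. + Fe, both higher at - Fe, that is 2 of 5 genes against 4.39% of all probe sets. None of the 5 passed it elsewhere. The shares of all probe sets were 3.61% for nas4x-1 at - Fe vs. + Fe and 1.53% in the interaction. They were 1.96% for nas4x-1 vs. wild type at + Fe and 2.65% at - Fe. With the harvest week as a replicate block, PBS3, WRKY46 and WRKY53 passed the unadjusted threshold for wild type, that is 3 of 5 against 8.14% of all probe sets, and WRKY46 passed it for nas4x-1 at - Fe vs. + Fe, that is 1 of 5 against 7.73%. After adjustment none passed with the block either (limma, lowest adjusted p = 0.413). The error model of the study called none of the 5, also unadjusted, against 0.308% to 1.46% of all probe sets unadjusted.

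**Figure D4:**
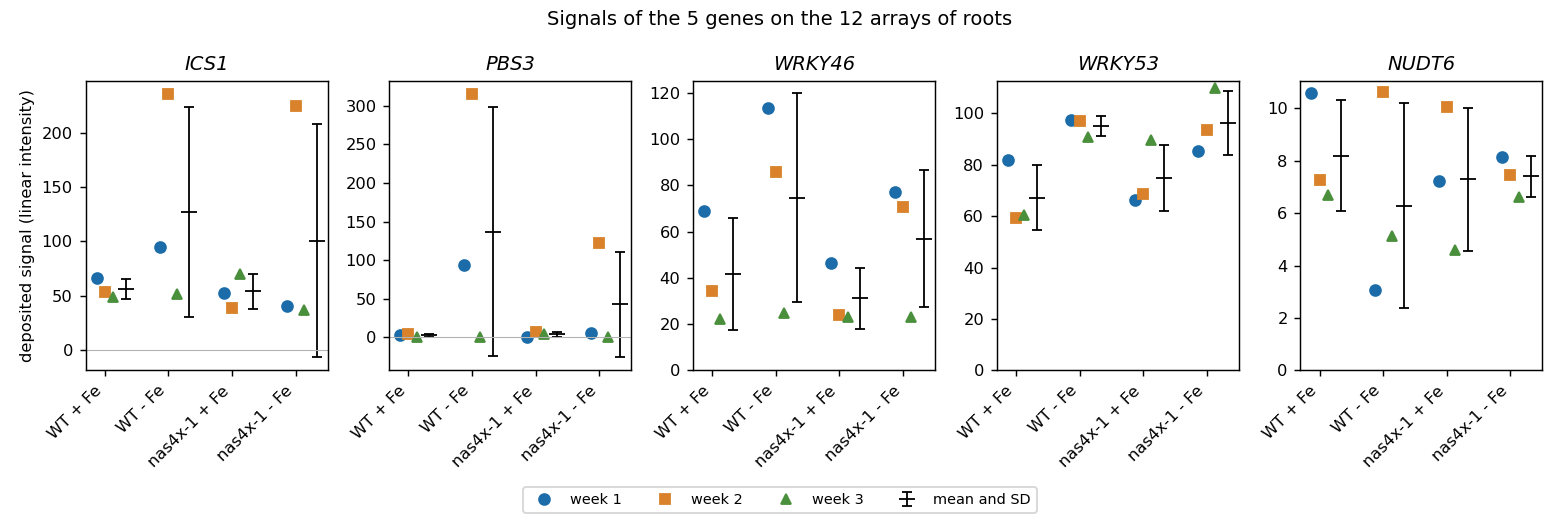
Deposited signal (linear intensity, y axis) of the 5 genes on each of the 12 root arrays, by group on the x axis, with harvest weeks as symbols and the mean and SD of 3 arrays beside them. PBS3 is high on 3 arrays at - Fe, with 94.3 to 315, and at most 6.60 on the other 9, and NUDT6 stays at or under 10.6.

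PBS3 was either near the bottom of the scale or high in roots. In wild type it had 3.475, 3.86 and 0.588 at + Fe and 94.3, 315 and 0.692 at - Fe in weeks 1 to 3. In nas4x-1 it had 0.883, 6.60 and 4.86 at + Fe and 5.41, 121.7 and 0.971 at - Fe. The array of wild type in week 2 was above every leaf array, the highest of which had 130.4. The log2 fold change for wild type at - Fe vs. + Fe was 2.19 (SE 0.939), and without the week 3 array of wild type at - Fe it was 3.36 (SE 0.743, limma adjusted p = 0.15). Without the week 2 array of that group it was 1.21 (SE 0.864, limma adjusted p = 0.9997).

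ICS1 was high in roots on the 2 arrays of week 2 at - Fe. It had 66.0, 53.7 and 48.6 in wild type at + Fe and 94.8, 236 and 51.1 at - Fe (log2 fold change 0.78, SE 0.56, limma adjusted p = 0.9995). In nas4x-1 it had 52.4, 38.8 and 70.4 at + Fe and 40.4, 225 and 36.8 at - Fe (log2 fold change 0.38, SE 0.56, limma adjusted p = 1.0). The groups overlapped in both genotypes. Over the 12 root arrays ICS1 and PBS3 had r = 0.92 and a Spearman rho of 0.57, as a description, and both genes were highest on the week 2 arrays at - Fe. PAL2 had its highest root signals on the same 2 arrays, with 2480.35 in wild type and 2361 in nas4x-1 in week 2 at - Fe, against 722 to 1023 on the arrays at + Fe. It did not pass the test (log2 fold change 0.64, SE 0.385, in wild type and 0.81, SE 0.385, in nas4x-1, limma adjusted p = 0.9995 and 1.0).

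The root genes nearest to PBS3 were AT2G23270, which the study had selected on leaves, with r = 0.97, and AT5G37740 with r = 0.96, a comparison added after the root signals were seen. AT2G23270 had 54.5 and 95.4 in weeks 1 and 2 of wild type at - Fe and 70.9 in week 2 of nas4x-1 at - Fe, and at most 13.1 on the other 9 root arrays. AT3G60420 was nearest to ICS1 (r = 0.94) and also near to PBS3 (r = 0.94). No gene of the 10 nearest in leaves was among the 5 nearest to either gene in roots.

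The WRKY genes and NUDT6 had other root patterns. WRKY53 was higher at - Fe in wild type with no overlap, with 81.7, 59.3 and 60.5 at + Fe and 97.5, 97.0 and 90.7 at - Fe (log2 fold change 0.43, SE 0.159), and it was the 1 of the 5 genes without overlap against 3.58% of all probe sets. Without the week 3 array at - Fe, 4 of 5 genes were higher with no overlap, against 8.82%. Each of the other 5 omissions left 1 of 5. In nas4x-1 WRKY53 had 66.4, 68.6 and 89.7 at + Fe and 85.5, 93.6 and 109.9 at - Fe (log2 fold change 0.31, SE 0.159), higher in all 3 weeks. WRKY46 had 68.9, 34.2 and 22.1 in wild type at + Fe and 113.3, 85.9 and 24.9 at - Fe (log2 fold change 0.58, SE 0.463), and 46.5, 24.0 and 23.1 against 77.1, 70.6 and 23.0 in nas4x-1 (log2 fold change 0.56, SE 0.463). In the other root comparisons the groups overlapped for each of the 5 genes. Of all probe sets, 4.62% were higher without overlap for nas4x-1 at - Fe vs. + Fe, and 6.22% were without overlap in either direction for the mutant against wild type at + Fe and 5.36% at - Fe. NUDT6 had root signals of 3.08 to 10.6, below the offset of 16 on all 12 arrays, and its log2 fold changes lay between -0.13 and 0.08.

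The root signals of WRKY46 varied with the harvest week. Its 4 root arrays of week 3 had 22.1 to 24.9 whatever the genotype and Fe supply, those of week 2 had 24.0 to 85.9 and those of week 1 had 46.5 to 113.3. The week 3 level was lower by 1.18 on the log2 scale than that of week 1, and the week term passed the moderated F test of limma (adjusted p = 0.0117), as it did for 13.3% of all probe sets. The leaf marker RCA was also lowest in the roots of week 3, with 29.3 to 35.6 against 62.4 to 102.9 in week 1, and its part in the result was not tested. The other 4 genes did not pass in roots, with limma adjusted p from 0.116 for PBS3 to 0.816 for WRKY53.

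Leaves and roots were also set side by side within each genotype and Fe supply, from a fit over all 24 arrays, as log2 differences of leaves minus roots without a test. In wild type at + Fe the differences ranged from -0.56 (SE 0.347) for WRKY53 to 0.99 (SE 0.749) for PBS3. WRKY53 had 26.8 to 51.9 in these leaves and 59.3 to 81.7 in the roots, and was thus lower in leaves with no overlap. PBS3 was higher in leaves with no overlap, with 15.1 to 28.0 against 0.588 to 3.86. Between the organs, 10411 of all 22746 probe sets passed limma in wild type at + Fe and 10202 at - Fe. In nas4x-1 it was 10370 at + Fe and 10152 at - Fe. The share of all probe sets without overlap between organs is not given here, so nothing is read from these overlaps of the 5 genes.

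In wild type at - Fe the difference was 2.86 (SE 0.377) for NUDT6, 1.41 (SE 0.449) for WRKY46, 1.31 (SE 0.466) for ICS1, 0.86 (SE 0.347) for WRKY53 and 0.29 (SE 0.749) for PBS3. Leaves and roots overlapped for ICS1 and PBS3. The difference of PBS3 was -0.88 without the week 3 array of the roots.

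In nas4x-1 at + Fe the difference was 2.22 (SE 0.377) for NUDT6, 1.77 (SE 0.749) for PBS3, 1.76 (SE 0.449) for WRKY46, 1.37 (SE 0.466) for ICS1 and 0.48 (SE 0.347) for WRKY53. Leaves and roots overlapped for WRKY53 alone, which was at 0.99 without the low week 1 leaf array. At - Fe the difference was 2.68 (SE 0.377) for NUDT6, 1.33 (SE 0.466) for ICS1, 1.204 (SE 0.449) for WRKY46, 1.19 (SE 0.749) for PBS3 and 0.59 (SE 0.347) for WRKY53, and ICS1 and PBS3 overlapped. Without the week 2 root array ICS1 was at 2.05.

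Ordered by group means, wild type leaves at - Fe ranked first for ICS1, WRKY46, WRKY53 and NUDT6, with 295, 208, 199 and 159, and wild type roots at - Fe ranked first for PBS3, with 137 ± 161 (SD, n = 3 arrays). The groups next to each other in this order overlapped for ICS1, WRKY46 and NUDT6 throughout. PBS3 had 1 gap, between wild type leaves at + Fe (21.3) and nas4x-1 roots at + Fe (4.11). WRKY53 had 2 gaps, between wild type roots at - Fe (95.1) and nas4x-1 roots at + Fe (74.9), and between wild type roots at + Fe (67.2) and wild type leaves at + Fe (40.9). Other groups crossed these gaps. Wild type roots at - Fe had 0.692 to 315 for PBS3, and nas4x-1 leaves at + Fe had 46.0 to 168 for WRKY53. The share of all probe sets with such gaps is not given here, so nothing is read from them. By its means WRKY53 was the single gene of the 5 with its lowest value in wild type leaves at + Fe, while NUDT6 was lower in all 4 root groups, with means from 6.28 to 8.18, than in any leaf group.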

How the data were processed

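The authors summarised each ATH1 array with MAS5 in GCOS (named without a version in the submitters' processing notes), scaled it to a target and normalized the arrays by quantiles. The deposited values are intensities on a linear scale, with column medians of 37.8 to 38.03. Here quantile normalization was repeated per organ (over all 24 arrays for leaves against roots), and the values were increased by 16, taken to log2 and compared with limma 3.58.1 in R 4.3.3 (intensity trend, all groups of the fit, Benjamini-Hochberg over 22746 probe sets, threshold 0.05), after 64 control probe sets were left out. The fit was tested on simulated data. Printed signals are as deposited, and 3 arrays per group limit the precision.

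Of the 22746 probe sets, 13707 were matched to 1 gene, 194 of them through tables of the study alone, as were 4 of the 5 genes. Whether a gene had a matched probe set thus depended in part on that listing. The leaf and root parts of the selection were told apart by the point at which its locus order starts anew. The members and lists were chosen with earlier results of these data known. Named genes were the 5, up to 4 genes per list with the largest changes or past the threshold, PAL2, and the 10 genes (3 for each of the 5) of most like leaf profile.

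Replicate numbers were taken as harvest weeks and so pair the arrays. Residuals correlated within a week by 0.212 to 0.64 in roots and 0.172 to 0.505 in leaves, and by at most 0.211 and 0.121 between weeks. The week as a block, offsets of 1 and 32, no second or a joint normalization, no trend, leaving out the dimmest 40 percent or each array, fewer groups, and the study's error model (variances averaged over 500 probe sets) were alternatives. Sequences and coordinates were not used here.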

Additional observations from a re-analysis of the deposited data

Results flagged for a closer look

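In leaves, nas4x-1 was above wild type in all 3 weeks at + Fe and below it in all 3 weeks at - Fe for ICS1, PBS3 and WRKY46. The difference between both contrasts was -1.50 for ICS1, -1.18 for PBS3 and -1.71 for WRKY46 on the log2 scale. This difference was not tested, because the study selected the genes on these arrays. WRKY53 and NUDT6 were higher in nas4x-1 in 1 and 2 of the 3 weeks at - Fe. At - Fe the genotypes overlapped for every gene, and the weekly log2 differences of PBS3 were -0.08, -0.76 and -0.08. Higher values in all 3 weeks at + Fe were found for 15.5% of all probe sets. The share that was also lower in all 3 weeks at - Fe is not given here, so nothing is read from the number of genes.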

How the results depend on the processing

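In leaves, a check was chosen after seeing the data, in which 1 array was left out at a time. For nas4x-1 vs. wild type at + Fe it gave 2 to 5 genes higher without overlap, against 8.38% to 12.2% of all probe sets. It gave 5 without the week 1 array of nas4x-1 (12.2%) and 4 without the week 2 array of wild type (9.58%). At - Fe it gave 0 to 1 genes higher in nas4x-1 without overlap, against 12.1% to 14.6%, with the 1 at a share of 12.3%. That count left out genes lower in nas4x-1, although the mean signals of all 5 genes were lower there. ICS1, PBS3 and WRKY46 were each lower in nas4x-1 without overlap on some omissions. The share of all probe sets for this is not given here, so nothing is read from it. In roots no setting called any of the 5 genes.

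Some root log2 fold changes turned sign, both near 0 and further from it. The WRKY46 interaction of -0.01 was 0.0201 with an offset of 1, 0.0236 with the error model and -0.51 to 0.39 without 1 array. Without 1 array, nas4x-1 at - Fe vs. + Fe gave -0.33 to 0.76 for ICS1, -0.0666 to 1.44 for PBS3 and -0.0722 to 0.10 for NUDT6. With all arrays these were 0.38, 0.89 and 0.01. For nas4x-1 vs. wild type at + Fe, ICS1 was -0.23 to 0.10, WRKY46 -0.50 to 0.0722 and NUDT6 -0.14 to 0.0280, against -0.07, -0.25 and -0.06 with all arrays. At - Fe, ICS1 was -1.18 to 0.0550, WRKY46 -0.75 to 0.14, WRKY53 -0.0736 to 0.0824 and NUDT6 -0.0198 to 0.22. All arrays together gave -0.46, -0.26, 0.01 and 0.08. The ICS1 interaction was -1.11 to 0.12 (-0.40 with all arrays), and PBS3 in leaves vs. roots of wild type at - Fe was -0.88 to 1.27 (0.29 with all arrays). The cause was not tested.

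Over all probe sets in leaves, the replicate block raised the calls from 40 to 275 and from 15 to 128 for - Fe vs. + Fe in wild type and nas4x-1, and from 6 to 17 and from 15 to 26 for nas4x-1 vs. wild type at + Fe and - Fe. The error model gave 10, 0, 3 and 4. Leaving out 1 array gave 16 to 165 and 1 to 16 for - Fe vs. + Fe in wild type and nas4x-1, 5 to 50 and 9 to 119 for nas4x-1 vs. wild type at + Fe and - Fe, and 9 to 47 in the interaction (14 with all arrays). The counts of 165, 119 and 47 were without the week 1 array of wild type at - Fe and that of 50 without the week 1 array of nas4x-1 at + Fe, which gave 45 in the interaction. In roots it gave 0 to 36 for wild type, with 36 without its week 3 array at - Fe. With an offset of 1, the leaf changes of PBS3 and NUDT6 in wild type were 2.02 and 3.03. Of the 10 genes of like leaf pattern, 2 were shared when 8 group means were used. With 3 arrays per group, signals under the offset carry little information on the size of a change.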
